A study of Rattus norvegicus with 31 samples.

Results

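Kidneys of Sprague-Dawley (SD) rats were set, gene by gene, against a common reference made by pooling RNA of 14 rat cell types. The samples were the 15 arrays of the SD strain among the 31 arrays of the series, chosen by strain alone: 8 from females and 7 from males, with 1 rat and 1 array each. All of these rats were purchased at 3 weeks, killed at 7 weeks of age, and the labels name no treatment; they served as the controls of double-transgenic rats (dTGR), whose 16 arrays (8 females, 8 males) enter only a short comparison near the end. SD male 6 was not analysed here. Kidney RNA was labelled with Cy3 and the pool with Cy5 on every array, so both RNAs competed for the same spots, and the ratio of Cy3 to Cy5 says how much more or less of a transcript the kidney held than the pool. Dyes were never swapped: a bias of 1 dye for a given probe stays in every ratio below, and it cancels only in differences between rats. The labels name neither the kidney region nor the cell types in the pool, so the pool is a yardstick and not an organ.

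The kidney filters plasma in the glomerulus, whose podocytes hold back protein, and then recovers sugar, phosphate, amino acids and bicarbonate in the proximal tubule, which burns fatty acids to drive its sodium pumps. The loop of Henle and the distal convoluted tubule reabsorb salt, and the collecting duct sets the final water, potassium and acid content through its principal and intercalated cells. Because a bulk kidney sample mixes all of these cells, a lower ratio can mean fewer cells of a type or less RNA per cell, and those cannot be told apart.

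Of 41012 probes, 25789 were bright enough in at least 1 dye, and they stood for 21826 genes and transcripts, 12209 of them with a gene symbol. Arrays of the same sex correlated across genes at 0.920 to 0.958 (median 0.943), and arrays of opposite sex at 0.866 to 0.921 (median 0.905). The kidney's Cy3 signal stood well above background for 18621 to 22346 probes per SD array, and the pool's Cy5 signal for 22613 to 27057. The zero of the ratio scale is uncertain. The array software sets it so that most genes balance, which put the median of all genes at a log2 ratio of -0.16. Control transcripts with expected ratios, which the file headers summarise, read 0.20 to 1.37 (median 0.99, log2) too far toward the kidney in the SD rats, and a zero set by them moves the median of all genes to -0.995.

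A gene was called kidney-enriched or kidney-poor when its ratio passed 2-fold in females and in males, in the same direction, at an adjusted p under 0.05 (limma's treat test, Benjamini-Hochberg). By this rule 3110 genes (14.2% of those tested) were enriched and 3315 genes (15.2%) were poor. Of the enriched genes, 629 passed 16-fold and 137 passed 64-fold as mean ratios, and of the poor genes 433 and 56 did. These counts do not leave out genes whose dim side was not well above background on any SD array, which have no measured ratio. With the zero set by the control transcripts, the split became 1573 enriched and 6646 poor genes, and with normexp background correction and median centring it became 917 and 5683. The values of single genes below therefore hold relative to the bulk of genes. Of the 167 named enriched or poor genes, many of them picked for large ratios, 148 kept their call with the zero of the control transcripts. With normexp and median centring 29 named genes lost their call and 4 turned sign. Only the bright side is measured for some genes. Of the enriched genes, 713 had passed the brightness filter through Cy3 alone, and of the poor genes 1269 through Cy5 alone. The filter tilts such genes to 1 side without forcing a call: of the genes called neither way, 299 had passed through Cy3 alone and 2724 through Cy5 alone. For 243 enriched genes the pool was not well above background on any SD array, and for 741 poor genes the kidney was not; such a gene is given as "at least N-fold", against the dimmest signal that was still well above background. Other ratios rest on a dim side seen on few arrays. Besides those given below with their number, the pool was well above background on 1 to 6 arrays for Slc2a2, Nefm, Zg16b, Tie1, Slc22a2, Pou3f3, Cyp4a1, Spetex2f, Atp6v1b1 and Kap, and the kidney on 3 for Ttk and Nppb and 5 for Akr1b7.

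**Figure D1:**
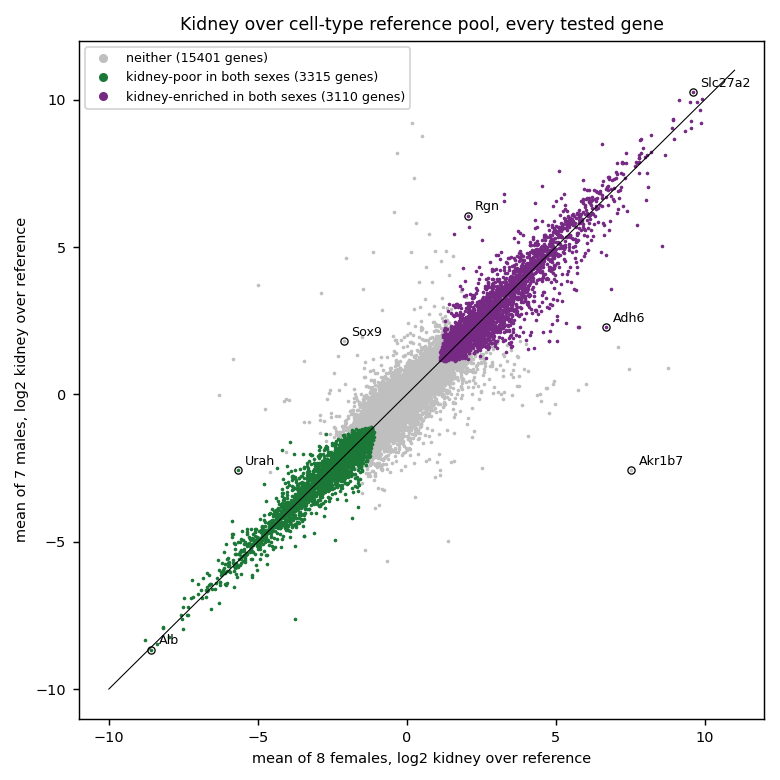
Each point is 1 of the 21826 tested genes, with the mean log2 kidney over reference ratio of 8 females on the x axis and of 7 males on the y axis; colours mark the 3110 enriched, 3315 poor and 15401 other genes, and the line marks equal ratios. Most points lie along the line from Alb at -8.62 to Slc27a2 at 9.93, while Rgn, Adh6, Urah, Sox9 and Akr1b7 lie away from it.

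The most kidney-enriched genes with a measured signal on both sides included several known from the proximal tubule. Slc27a2, a fatty acid transporter and very long-chain acyl-CoA synthetase, ranged from 8.88 to 10.14 (median 9.60) in females and from 9.88 to 10.68 (median 10.16) in males. Hao2, a peroxisomal oxidase of hydroxy acids, ranged from 9.40 to 10.19 (median 9.72) and from 9.17 to 10.54 (median 10.07). Sostdc1, a secreted inhibitor of BMP and Wnt signalling, ranged from 8.90 to 10.41 (median 9.92) in females and from 9.03 to 10.42 (median 9.58) in males. All 15 rats were high for these genes, and the sexes overlapped for each of them. As means of the sexes with their standard errors, the log2 ratios were 9.93 ± 0.08 for Slc27a2, 9.83 ± 0.09 for Hao2 and 9.75 ± 0.11 for Sostdc1, with adjusted p no higher than 2.8e-19.

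The next in rank were Cltrn (collectrin, a chaperone of amino acid transporters) at 9.13 ± 0.10, Slco1a6 (an organic anion transporter) at 8.49 ± 0.16 and Mep1a (the alpha subunit of the brush border protease meprin) at 8.25 ± 0.10. AKR1C3l1, an aldo-keto reductase, stood at 8.13 ± 0.08, Kdr, the VEGF receptor of endothelial cells, at 7.79 ± 0.08, Tmigd1, an epithelial adhesion protein, at 7.70 ± 0.18, and Fbp1, fructose-1,6-bisphosphatase of gluconeogenesis, at 7.60 ± 0.04. Kdr is the single vessel gene among these 10. Its ratio lay between 7.11 and 8.05 in females and between 7.43 and 8.33 in males, so the sexes overlapped. Slco1a6 had 1 rat apart, SD male 5 at 10.39, with the next male at 9.0.

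At the other end stood genes of liver, skin, mast cells, embryonic muscle and the reproductive tract. Alb, serum albumin, ran from -9.14 to -8.22 (median -8.42) in females and from -9.81 to -8.06 (median -8.54) in males. Krt6c, a keratin of stratified epithelium, ran from -8.39 to -7.47 (median -8.01) and from -8.98 to -7.71 (median -8.02). Mcpt1, a mast cell protease, ran from -7.71 to -7.40 (median -7.53) and from -8.37 to -7.22 (median -7.50). In every rat these transcripts were far rarer than in the pool, and females and males overlapped. The mean log2 ratios were -8.62 ± 0.11 for Alb, -8.11 ± 0.09 for Krt6c and -7.58 ± 0.07 for Mcpt1 (adjusted p of 1.5e-18 or less).

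Mcpt8, another mast cell protease, followed at -6.69, then Krtdap, a keratinocyte protein, at -6.65 and Myh3, the embryonic myosin heavy chain, at -6.50. Rhox5, a homeobox gene of the reproductive tract, stood at -6.37, Rln1, relaxin, at -6.28, Fcgr2b, the inhibitory IgG receptor, at -6.17 and Cxcl1, a neutrophil chemokine, at -6.14. Cxcl1 was high in SD male 8, at -3.52 against -5.80 in the next male. Fcgr2b differed between the sexes, with male minus female at -0.75 (adjusted p = 0.013, limma).

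**Figure D2:**
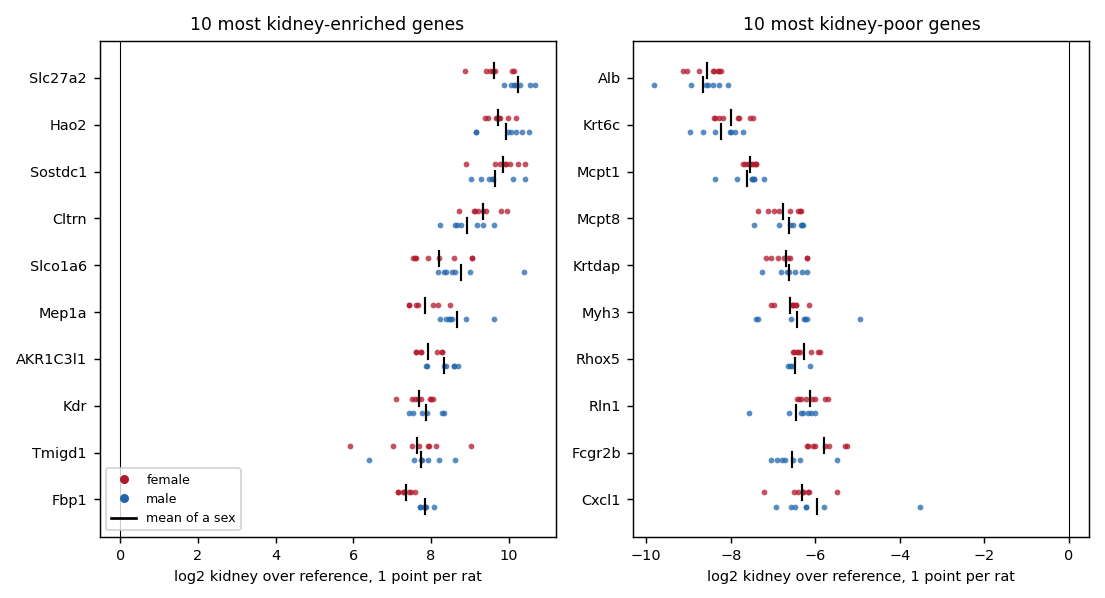
Log2 kidney over reference ratios of the 10 most enriched (left) and 10 most poor (right) genes with a signal on both sides, 1 point per rat (8 females, 7 males), the bar marking the mean of a sex. The lowest enriched point lies at 5.91 and the highest poor point at -3.52.

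Gene lists for nephron segments held mostly enriched genes, from the podocytes to the collecting duct. Among the proximal tubule solute transporters, 18 of 19 measured genes were enriched and none was poor, with a median log2 ratio of 5.60 against -0.16 over all genes. Slc5a2, the sodium-glucose cotransporter SGLT2 of the early proximal tubule, ran from 6.79 to 7.56 in females (median 7.21) and from 6.46 to 8.03 in males (median 7.57). Slc34a1, the sodium-phosphate cotransporter, ran from 6.51 to 7.45 (median 6.75) and from 6.92 to 8.04 (median 7.22). Slc5a10, a sodium-dependent sugar transporter, had a mean of 6.86 ± 0.10. All rats were high for these 3 genes, and females and males overlapped.

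Of 21 brush border and endocytosis genes, 19 were enriched (median 3.92). Lrp2, megalin, the receptor that takes filtered protein back into the proximal tubule, was among the steadiest genes of the list: 6.43 to 6.89 (median 6.68) in females and 6.53 to 6.88 (median 6.67) in males. Its mean was 6.69 ± 0.04, with a male minus female difference of 0.01. Organic ion carriers, which secrete drugs and metabolites, were enriched in 13 of 16 cases (median 3.92). Slc22a25 stood at 8.02 ± 0.20, but its pool signal was well above background on 1 array, and SD female 7 was low at 6.03. Slc47a1, the MATE1 exporter, stood at 5.64 ± 0.11.

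Of 17 amino acid and peptide carriers, 12 were enriched and 1 was poor (median 3.26). Slc7a9, the light chain of the cystine transporter of the brush border, stood at 6.79 ± 0.10, and Slc15a1, the low-affinity peptide transporter, at 6.80 ± 0.28, with the pool well above background on 1 array. Slc15a2, the high-affinity peptide transporter, was at least 102-fold higher than in the pool, where it was not well above background. The poor member was Slc7a5, which carries large neutral amino acids into growing cells: it lay between -3.42 and -2.46 in females and between -3.30 and -2.39 in males, a mean of -2.93 ± 0.08.

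Podocyte genes were enriched in 13 of 19 cases (median 3.55), and in 8 (median 1.05) with normexp and median centring. Nphs1, nephrin of the slit diaphragm, ran from 4.33 to 8.12 (median 7.5) in females and from 4.31 to 7.22 (median 5.56) in males, and its mean was 6.17 ± 0.31, with the pool well above background on 5 arrays. Clic5, an ezrin-linked protein of foot processes, stood at 7.00 ± 0.24, and Tcf21, a podocyte transcription factor, at 5.36 ± 0.13.

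Loop and distal convoluted tubule genes were enriched in 16 of 20 cases, with a median of 5.15. Umod, uromodulin of the thick ascending limb, ran from 6.95 to 7.59 (median 7.12) in females and from 7.53 to 8.24 (median 7.85) in males, so the groups overlapped only between 7.53 and 7.59; the mean was 7.53 ± 0.06. Slc12a1, the NKCC2 cotransporter blocked by loop diuretics, stood at 7.29 ± 0.13, and Cldn10, a cation-selective tight junction claudin, at 6.70 ± 0.07. Claudins as a family were enriched in 11 of 14 cases (median 3.74), with Cldn7 of distal segments at 5.91 ± 0.08 and Cldn5 of endothelium at 5.27 ± 0.08.

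In the collecting duct, 15 of 19 principal cell genes (median 3.82) and 15 of 17 intercalated cell genes (median 3.36) were enriched, the latter falling to 7 (median 1.23) with normexp and median centring. Hsd11b2, which shields the mineralocorticoid receptor from glucocorticoids, ran from 5.89 to 6.21 in females (median 6.01) and from 5.44 to 6.44 in males (median 5.96). Avpr2, the vasopressin receptor, stood at 5.39 ± 0.14, and Scnn1b, a subunit of the epithelial sodium channel, at 5.03 ± 0.05. Of the intercalated cell genes, Atp6v1g3, a proton pump subunit, stood at 6.64 ± 0.07, Slc4a1, the anion exchanger AE1 that red cells share, at 6.04 ± 0.11, and Slc26a4, pendrin, at 5.80 ± 0.10. Females and males overlapped for each of these 6 genes.

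Families with members in many tissues were mixed. Of 11 aquaporins, 8 were enriched: Aqp7, a glycerol channel of the late proximal tubule, stood at 6.67 ± 0.08 and Aqp4 of principal cells at 4.68 ± 0.13. Aqp9, the liver's glycerol channel, was poor at -5.81 ± 0.08, with all 15 rats between -6.40 and -5.26. Of 14 genes of the sodium pump and chloride channels, 8 were enriched and 2 poor: Fxyd2, the pump's gamma subunit, at 6.40 ± 0.05, Atp1b1 at 5.29 ± 0.06 and Fxyd6 at 4.23 ± 0.04 against Fxyd3 at -3.28 ± 0.10.

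V-ATPase subunits showed the tubule's own isoforms beside those common to all cells. Of 23 subunits, 8 were enriched and none poor, and the median was 0.67, which turned to -0.21 with the zero of the control transcripts. Atp6v0a4 of intercalated cells stood at 4.92 ± 0.12. Atp6v1b1, the kidney form of the B subunit, lay between 2.06 and 5.93 in females and between 1.45 and 4.57 in males, a mean of 3.54 ± 0.30. Atp6v1b2, the form of most cells, ran from 1.18 to 2.11 and from 0.84 to 1.88, a mean of 1.40 ± 0.08 (adjusted p = 0.014 in the weaker sex, and up to 0.065 when male 3 or male 7 was left out).

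Kidney transcription factors were enriched in 12 of 21 cases (median 2.03). Pou3f3, a POU factor of the distal nephron, stood at 7.66 ± 0.26 and Pax8, a paired-box factor of tubule epithelium, at 5.45 ± 0.13. Nr1h4, the bile acid receptor FXR, was at least 27.3-fold higher than in the pool. Osr1, an embryonic kidney factor, was poor: all 15 rats lay between -3.51 and -2.09, with a mean of -2.76 ± 0.09.

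Promoters of tubule genes are shown because the factors HNF1 and HNF4 are known regulators of proximal tubule genes. Promoters were matched by symbol to a RefSeq table (GRCr8) for 9886 tested genes, and windows of 250 bases before to 50 after the start were searched on both strands. The HNF1 letters GTTAATNAT stood in 16 of 1458 enriched promoters (1.10%), against 0.546% of all tested promoters, and the HNF4 letters CAAAGTCCA in 10 (0.686%) against 0.344%. Of 18 promoters of the proximal tubule solute transporters, 0 held the HNF1 letters and 0 the HNF4 letters. The same held for 0 of 13 promoters of organic ion carriers. Of 19 brush border promoters, 3 held the HNF1 letters and 1 the HNF4 letters. The following are the 100 bases before the start, on the gene's strand, of the 3 most enriched genes per motif that held it there and were measured on both sides, with the match in capitals. A match is only a match of letters. The HNF1 matches are in Mep1b (the meprin beta subunit, chr18:12640941-12641040, plus strand), Atp6v0a4 (chr4:67809093-67809192, minus strand) and Cdhr2 (a protocadherin of the brush border, chr17:9917699-9917798, minus strand). The HNF4 matches are in Slc3a1 (the heavy chain partner of Slc7a9, chr6:15394750-15394849, minus strand), Agxt2 (a mitochondrial aminotransferase, chr2:61063316-61063415, plus strand) and Kmo (kynurenine monooxygenase, chr13:90089421-90089520, plus strand).
Mep1b: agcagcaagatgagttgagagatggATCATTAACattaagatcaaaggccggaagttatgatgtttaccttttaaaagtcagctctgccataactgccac
Atp6v0a4: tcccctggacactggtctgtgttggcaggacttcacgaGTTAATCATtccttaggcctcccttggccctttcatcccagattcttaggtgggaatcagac
Cdhr2: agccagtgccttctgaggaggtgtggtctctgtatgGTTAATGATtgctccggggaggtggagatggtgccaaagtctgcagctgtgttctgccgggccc
Slc3a1: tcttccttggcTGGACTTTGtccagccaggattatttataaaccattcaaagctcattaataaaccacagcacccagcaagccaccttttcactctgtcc
Agxt2: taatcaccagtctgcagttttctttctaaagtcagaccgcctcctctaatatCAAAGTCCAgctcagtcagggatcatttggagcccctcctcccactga
Kmo: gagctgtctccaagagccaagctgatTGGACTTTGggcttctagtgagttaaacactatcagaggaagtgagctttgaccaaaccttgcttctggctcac
Their mean log2 ratios were 5.23 for Mep1b, 4.92 for Atp6v0a4, 4.21 for Cdhr2, 6.61 for Slc3a1, 5.72 for Agxt2 and 4.91 for Kmo. The HNF1 match began 75, 62 and 64 bases before the start in Mep1b, Atp6v0a4 and Cdhr2, and the HNF4 match 89, 48 and 74 bases before it in Slc3a1, Agxt2 and Kmo. The ERR letters TCAAGGTCA stood in 8 enriched promoters (0.549%) against 0.212% of all tested ones.

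Metabolic genes divided by pathway. Gluconeogenesis and fructose genes were enriched in 12 of 16 cases with none poor (median 2.57), with Fbp1 (above) among them. Glyat, listed with them, conjugates acyl groups to glycine and is no gluconeogenic enzyme; it stood at 7.06 ± 0.11. Glycolysis genes went the other way: 11 of 22 were poor and 1 was enriched (median -1.32). Eno2, an enolase of neurons and tumour cells, ran from -4.60 to -3.90 in females (median -4.30) and from -4.54 to -3.68 in males (median -4.04). Pdk1, which shuts pyruvate dehydrogenase, stood at -3.99 ± 0.14, and the enriched member was Ldhb at 3.73 ± 0.07.

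Among the isoform pairs, Ldha and Ldhb were called on opposite sides of the pool. Ldha, the lactate dehydrogenase of glycolytic tissue, lay between -2.92 and -2.43 in females and between -3.01 and -2.46 in males, while Ldhb, the heart form, ran from 3.51 to 4.26 and from 3.26 to 3.97. Every rat thus had a low Ldha and a high Ldhb ratio. Slc2a2, the GLUT2 glucose carrier of the proximal tubule, stood at 6.69 ± 0.25 against -1.24 ± 0.06 for Slc2a1, GLUT1, whose difference from the pool did not pass 2-fold (adjusted p = 0.16). Aldoa, an aldolase of glycolysis, stood at -0.58 ± 0.04 and was called neither way.

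Hk2, an insulin-regulated hexokinase, was poor at -2.29 ± 0.11, while Hk1 stood at 0.52 ± 0.04, called neither way, and turned to -0.33 with the zero of the control transcripts. Of the phosphofructokinases, Pfkp was poor at -1.51 ± 0.06 and Pfkl, at -1.13 ± 0.04, did not pass 2-fold. Gls2, the liver-type glutaminase, was poor at -1.60 ± 0.07. Cox6a1 (1.87 ± 0.05) was enriched, while the muscle form Cox6a2 (-0.87 ± 0.10) was called neither way.

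Fatty acid oxidation and peroxisome genes were enriched in 22 of 30 cases (median 2.43). After Hao2, the strongest were Cyp4a1, a fatty acid omega-hydroxylase, at 7.03 ± 0.20 and Acsm3, a medium-chain acyl-CoA synthetase, at 6.45 ± 0.26. Acsm3 in males lay between 7.16 and 8.06 except for SD male 5 at 4.12. Of 40 genes of amino acid catabolism and ammonia, 34 were enriched and 1, Gls2, was poor (median 2.37).

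Kynu, kynureninase of tryptophan breakdown, stood at 9.29 ± 0.08 with a pool signal well above background on 5 arrays. Miox, which opens the inositol ring in the proximal tubule, stood at 6.46 ± 0.08 and Arg2, the mitochondrial arginase, at 6.28 ± 0.09. Oxidative phosphorylation genes had smaller ratios: 23 of 40 were enriched and none poor (median 1.42), led, apart from Cox8b, by Cox8a at 2.53 ± 0.04 and Sdhd at 2.46 ± 0.03. Citric acid cycle genes were enriched in 11 of 20 cases (median 1.6), with Dlst at 2.65 ± 0.05, Idh2 at 2.40 ± 0.05 and Suclg1 at 2.03 ± 0.05. These 2 lists depend on the zero. With that of the control transcripts 5 of 40 and 1 of 20 genes were enriched, where 1573 of all 21826 genes were. With normexp and median centring the median of oxidative phosphorylation turned to -0.25.

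Over all 21826 genes, normexp and median centring moved the enriched count from 3110 to 917 and the poor count from 3315 to 5683. Several other list counts of enriched genes fell by over 1.5 times with it: to 8 of 16 organic ion carriers, 6 of 21 transcription factors, 5 of 11 aquaporins, 7 of 14 claudins, 7 of 16 gluconeogenesis genes, 12 of 30 fatty acid oxidation genes and 16 of 40 amino acid catabolism genes. Of the lists described next, 9 of 31 cytochrome P450 genes and 4 of 27 filament and junction genes were enriched with it, and none of 17 lysosomal proteases. Sodium pump genes fell to 4 of 14 and V-ATPase subunits to 3 of 23, while 17 of 22 glycolysis genes were poor. With normexp and loess 6 of 14 claudins were enriched, and 6 of 18 lymphocyte and 7 of 20 muscle genes were poor. Over all genes 1997 were enriched and 1710 poor with loess.

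Cytochrome P450 and conjugation genes were enriched in 17 of 31 cases and poor in 2 (median 2.72). Fmo2, a flavin monooxygenase, ran from 6.44 to 7.01 (median 6.74) in females and from 6.76 to 7.55 (median 7.08) in males, and Cyp2e1 had a mean of 5.62 ± 0.06. Nat8, an acetyltransferase of kidney and liver, stood at 5.46 ± 0.07 on its brightest probe, but its other probe read -2.41. Cyp1b1, a P450 of extrahepatic tissue, was poor at -2.67 ± 0.11.

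**Figure D3:**
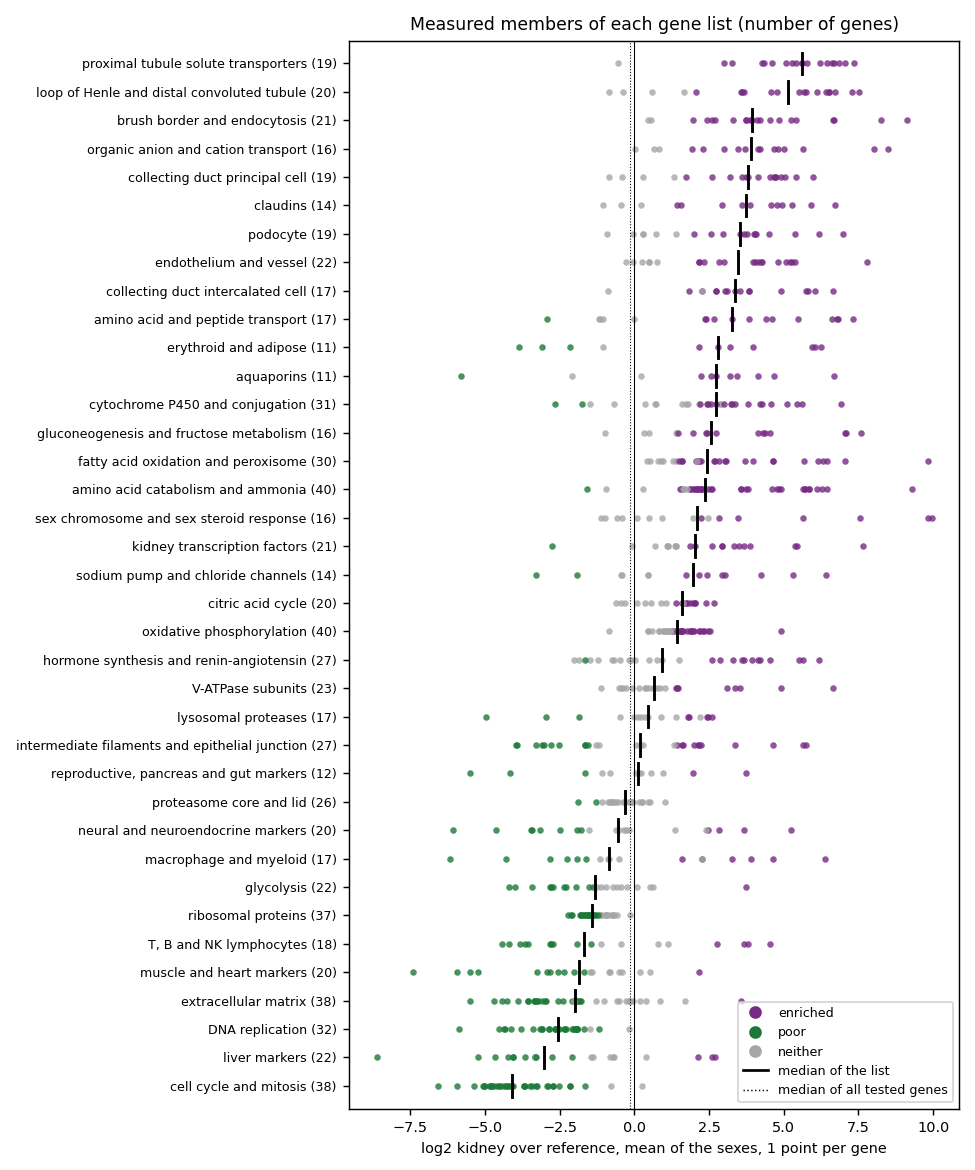
Each row is a gene list with its number of measured genes, each point 1 gene at its mean log2 kidney over reference ratio, coloured by call, and the bar the median of the list; the dotted line marks the median of all tested genes at -0.16. Proximal tubule transporters (median 5.60) and loop genes (5.15) lie at the top, and cell cycle genes (-4.11) at the bottom.

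Hormone genes and the renin-angiotensin system were enriched in 12 of 27 cases and poor in 1 (median 0.91). With the zero of the control transcripts the median was 0.07, with 11 enriched and 4 poor, where 1573 and 6646 of all 21826 genes were. With normexp and median centring 8 were enriched and 7 poor, where 917 and 5683 of all genes were. Kl, klotho, the coreceptor of FGF23, was at least 51.0-fold higher than in the pool. Egf, made by the distal convoluted tubule, ran from 5.0 to 5.54 (median 5.23) in females and from 5.62 to 6.15 (median 5.75) in males, without overlap. Prlr, the prolactin receptor, ran from 3.85 to 5.83 and from 6.10 to 6.64, also without overlap. The mean was 5.52 ± 0.05 for Egf and 5.66 ± 0.12 for Prlr, and Npr3, the clearance receptor of natriuretic peptides, was poor at -1.66 ± 0.08.

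Agt, angiotensinogen, was called neither way: females ran from -3.32 to -2.0 (median -2.48) and males from -0.13 to 0.42 (median 0.26). Lysosomal proteases were enriched in 5 of 17 cases and poor in 3 (median 0.44, -0.45 with the zero of the control transcripts). Ctsk, cathepsin K, stood at 2.60 ± 0.06, Ctsz, cathepsin Z, at -2.95 ± 0.07, and Cst6, an inhibitor of such proteases, at -4.96 ± 0.04. Ctsl, cathepsin L, lay between 3.06 and 3.94 in females and between 0.24 and 1.38 in males, so it passed 2-fold only in females, and the groups did not overlap.

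Vessel and blood cell genes bear on other cells in these kidneys. Endothelium and vessel genes were enriched in 16 of 22 cases with none poor (median 3.48). The list also holds vessel wall genes that are not endothelial, Des among them. Tie1, an endothelial receptor kinase, stood at 5.37 ± 0.14 beside Kdr and Cldn5. Of 17 macrophage and myeloid genes, 6 were enriched and 6 poor (median -0.85), the lowest being Fcgr2b (above) at -6.17. With normexp and median centring 4 were enriched and 9 poor (median -2.13), where 917 and 5683 of all 21826 genes were. Adgre1, the F4/80 macrophage marker, was at least 61.4-fold higher than in the pool, and C1qa, complement C1q, stood at 4.65 ± 0.04. Of 18 lymphocyte genes 10 were poor and 4 enriched (median -1.68), with Cd3g of T cells at -4.21 ± 0.08 and Cd74, the invariant chain of antigen-presenting cells, at 4.53 ± 0.05. Gzmb, granzyme B, stood at -4.45 ± 0.11, and its other probe at -2.0. Haemoglobin transcripts were enriched too: Hbb was at least 54.5-fold higher than in the pool and Hbb-b1 stood at 6.25 ± 0.07, whereas Rhag of red cell precursors was at least 7.68-fold lower.

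Fat-cell genes stood out by differing between rats. Ucp1, the uncoupling protein of brown fat (chosen after its values were seen), ran from 5.83 to 7.32 in 13 rats, but read 1.5 in SD female 2 and 2.67 in SD male 1. Cox8b, a cytochrome oxidase subunit of muscle and brown fat, read 2.14 and 2.18 in these rats against 3.51 to 6.34 in the others. Fabp4, the fatty acid carrier of adipocytes, read 0.68 and 1.87 against 1.90 to 3.99. The same 2 rats were the lowest of the rats with a ratio for each of the 8 fat-cell genes. The other rats with a ratio numbered 9 for Retn, 11 for Adipoq and Cidea and 13 for the rest. Cox8b was taken into this set from the oxidative phosphorylation list.

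For Plin1, the coat protein of fat droplets, these 2 rats read -0.92 and -0.17 against 0.17 to 3.58 in the others, and for Adipoq, adiponectin, 1.57 and 1.96 against 2.77 to 4.46. Cfd, adipsin, read -5.29 and -3.41 against -1.75 to 0.97, Retn, resistin, -4.52 and -3.94 against -3.50 to -2.18, and Cidea of brown fat (also chosen afterwards) 1.00 and 1.33 against 1.64 to 3.83. Of the 8 genes, 6 were enriched, Retn was poor and Cfd neither, and each kept this call without the 2 rats, when the mean of Ucp1 moved from 5.84 to 6.42 and that of Cox8b from 4.90 to 5.32. Lep, leptin, was not among the tested genes. Hbb was also lowest in SD female 2, at 4.19 against 5.52 in the next female. Without the 2 rats, 3067 genes in all were enriched and 3249 poor. The other probe of Cox8b read 1.11.

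**Figure D4:**
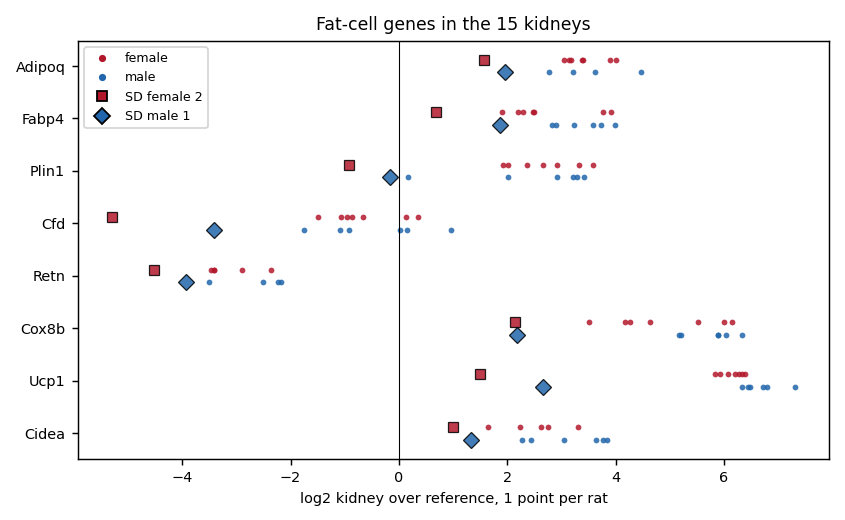
Log2 kidney over reference ratios of 8 genes of fat cells, 1 point per rat (8 females, 7 males, fewer where a spot was marked); the square is SD female 2 and the diamond SD male 1. Both lie left of all other rats in every row, for Ucp1 at 1.5 and 2.67 against 5.83 or more.

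With the array software's scaling, genes of dividing cells made the most uniform kidney-poor group among the lists. Of 38 cell cycle and mitosis genes, 36 were poor and none enriched, with a median of -4.11. Bub1b, a spindle checkpoint kinase, ran from -6.36 to -4.66 (median -5.80) in females and from -6.58 to -5.82 (median -6.17) in males. Ttk, another checkpoint kinase, stood at -6.57 ± 0.20 and Ccna2, cyclin A2, at -5.38 ± 0.11. For 5 of these genes the kidney was not well above background on any array. DNA replication genes were poor in 30 of 32 cases (median -2.55): Rrm2, a subunit of ribonucleotide reductase, stood at -5.89 ± 0.11, while Uhrf1, which keeps DNA methylation, was at least 19.0-fold lower than in the pool. Both lists keep to this side with the zero of the control transcripts, with 37 of 38 and 31 of 32 genes poor. With normexp and loess 31 of 38 cell cycle genes were poor, against 34 of 37 ribosomal protein genes. With normexp and median centring these counts were 33 and 36.

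Promoters of the cell cycle genes are shown because many hold the NF-Y letters CCAAT and the cell cycle element CHR, TTTGAA, which are known from genes of the late cell cycle. Both stood within the 300-base window in 18 of 28 cell cycle promoters (64.3%), against 5.11% of all tested promoters and 8.19% of the poor genes' promoters. The CHR letters alone stood in 71.4% against 12.1%. The E2F letters TTTCCCGC stood in 4 of 26 DNA replication promoters (15.4%) against 1.97%. The following are the 100 bases before the start, on the gene's strand (GRCr8, RefSeq), of the 4 poorest cell cycle genes that held both motifs there, with matches on either strand in capitals: Mki67, the proliferation marker Ki-67 (chr1:199952594-199952693, minus strand), Top2a, topoisomerase II alpha (chr10:84473094-84473193, minus strand), Ccnb2, cyclin B2 (chr8:79981659-79981758, minus strand), and Cdk1 (chr20:19265193-19265292, plus strand).
Mki67: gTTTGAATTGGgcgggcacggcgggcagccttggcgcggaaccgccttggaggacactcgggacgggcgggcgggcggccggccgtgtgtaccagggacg
Top2a: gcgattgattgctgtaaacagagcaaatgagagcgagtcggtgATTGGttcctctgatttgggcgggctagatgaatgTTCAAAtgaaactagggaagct
Ccnb2: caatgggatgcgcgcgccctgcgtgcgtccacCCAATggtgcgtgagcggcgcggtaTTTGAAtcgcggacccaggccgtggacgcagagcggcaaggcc
Cdk1: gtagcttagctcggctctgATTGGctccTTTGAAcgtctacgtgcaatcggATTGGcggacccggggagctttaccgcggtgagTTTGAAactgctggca
The mean log2 ratios were -5.04 for Mki67, -5.01 for Top2a, -4.82 for Ccnb2 and -4.48 for Cdk1, with males and females overlapping for each. In Mki67 the matches of both motifs overlap, and Cdk1 holds 4 matches. Mki67 was well above background in the kidney on 2 arrays, against 15 for Top2a and Cdk1.

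Matrix and translation genes were poor as well. Of 38 extracellular matrix genes 23 were poor and 1 enriched (median -2.01). Lox, which crosslinks collagen, lay between -4.72 and -3.60 in females and between -5.72 and -4.61 in males, a mean of -4.69 ± 0.10. Mmp3, a metalloproteinase, stood at -5.49 ± 0.11, with the kidney well above background on 2 arrays, and Postn, periostin, at -4.42 ± 0.15, and the enriched member was Timp3, an inhibitor of such proteinases, at 3.56 ± 0.05. Ribosomal protein genes were poor in 22 of 37 cases (median -1.42): Rplp0 at -2.22 ± 0.07, Rps23 at -2.13 ± 0.05 and Rpl30 at -2.08 ± 0.03. Of 26 proteasome genes 2 were poor (median -0.31): Psmd14 at -1.89 ± 0.06 and Psma3 at -1.30 ± 0.05. With the zero of the control transcripts 34 of 37 ribosomal and 10 of 26 proteasome genes were poor, and with normexp and median centring 36 and 25.

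Filament and junction genes went both ways: 11 of 27 were enriched and 10 poor (median 0.19, -0.66 with the zero of the control transcripts). Crb3, a polarity protein, stood at 5.74 ± 0.07, Cdh16, the kidney's own cadherin, at 5.66 ± 0.08 and Mal, an apical sorting protein, at 4.63 ± 0.06, against Krt5 of basal epithelial cells at -3.97 ± 0.05.

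Markers of other organs differed by list. Of 22 liver genes 12 were poor and 3 enriched (median -3.04): after Alb came Cps1 of the urea cycle at -5.23 ± 0.16 (kidney well above background on 2 arrays) and Ahsg, fetuin A, at -4.67 ± 0.07, while Fga, fibrinogen alpha, stood at 2.69 ± 0.06. Of 20 muscle and heart genes 11 were poor and 1 enriched (median -1.86). Myog and Myod1, muscle-determining factors, were at least 47.7-fold and 28.3-fold lower than in the pool. Nppb, the natriuretic peptide BNP, stood at -7.43 ± 0.15 with its other probe at -1.89, and Des, desmin, was enriched at 2.15 ± 0.07.

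Of 20 neural and neuroendocrine genes 8 were poor and 4 enriched: Chgb, chromogranin B, was at least 47.7-fold lower, Vgf at least 16.2-fold lower, and Nefm, a neurofilament, stood at 5.25 ± 0.10. Of 12 markers of reproductive organs, pancreas and gut, 3 were poor, 2 enriched and 7 neither (median 0.10): Cdx2, an intestinal factor, stood at -5.50 ± 0.06, Inhba, the activin subunit, was at least 15.5-fold lower, and Pomc was enriched at 3.74 ± 0.04.

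Enrichment shared by the sexes did not mean equal levels. Of the 21826 genes, 5350 (24.5%) differed between males and females at an adjusted p under 0.05 (limma), 2206 (10.1%) higher in males and 3144 (14.4%) higher in females. Among the enriched genes 876 (28.2%) did, 522 of them higher in males, and among the poor genes 455 (13.7%) did, 140 of them higher in males. In 190 of these enriched and 57 of these poor genes the difference was 2-fold or more. The split moved with the scaling: with normexp and median centring 680 genes were higher in males and 4935 in females, and with the zero of the control transcripts, which carries each array's own shift, 313 and 728. Each slide held a single sex, and each sex filled 2 slides. With slide as a random block 6079 genes differed between the sexes, at a fitted correlation within slides of -0.036. As no slide held both sexes, this fit does not set sex apart from slide.

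Among genes enriched or poor in both sexes, Rgn, regucalcin, a calcium-binding lactonase, had the largest male excess: females ran from 1.42 to 2.35 (median 2.15) and males from 5.55 to 6.33 (median 6.17). Slc22a2, the organic cation transporter OCT2, ran from 0.72 to 5.63 (median 3.75) in females and from 4.13 to 8.25 (median 6.82) in males. Urah, a urate pathway hydrolase, lay between -6.86 and -5.11 in females and between -3.51 and -1.94 in males. Rgn and Urah separated the sexes fully, and for Slc22a2 the lowest male, SD male 2, fell within the female range. Male minus female differences were 4.02 for Rgn (adjusted p = 1.92e-12), 3.53 for Slc22a2 (0.000988) and 3.1 for Urah (4.12e-08). Spata22, a meiosis gene, differed by 3.62, Gucy1b2, a guanylate cyclase subunit, by 3.30, and Zg16b, a secreted lectin, by 2.74; the pool was not well above background for Spata22 and Gucy1b2, which were at least 8.09-fold and 15.6-fold enriched.

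Adh6, an alcohol dehydrogenase, had the largest female excess among these genes: females ran from 5.90 to 7.11 (median 6.74) and males from 0.66 to 3.07 (median 2.63). Nxf7, of a family of RNA export factors, was poor in both sexes, between -4.38 and -2.84 in females and between -8.12 and -6.55 in males. Spetex2f, of a rat family known from testis, lay between 4.32 and 7.85 in females and between 2.39 and 4.77 in males. Only Spetex2f overlapped between the sexes among these 3 genes. Male minus female was -4.41 for Adh6, -3.88 for Nxf7, -3.27 for Spetex2f and -2.98 for its near copy Spetex2d, whose probes may read each other's transcripts. Aadac and Ces1dl1, both esterases, were at least 14.3-fold and 14.4-fold enriched, with male minus female at -3.50 and -3.45.

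**Figure D5:**
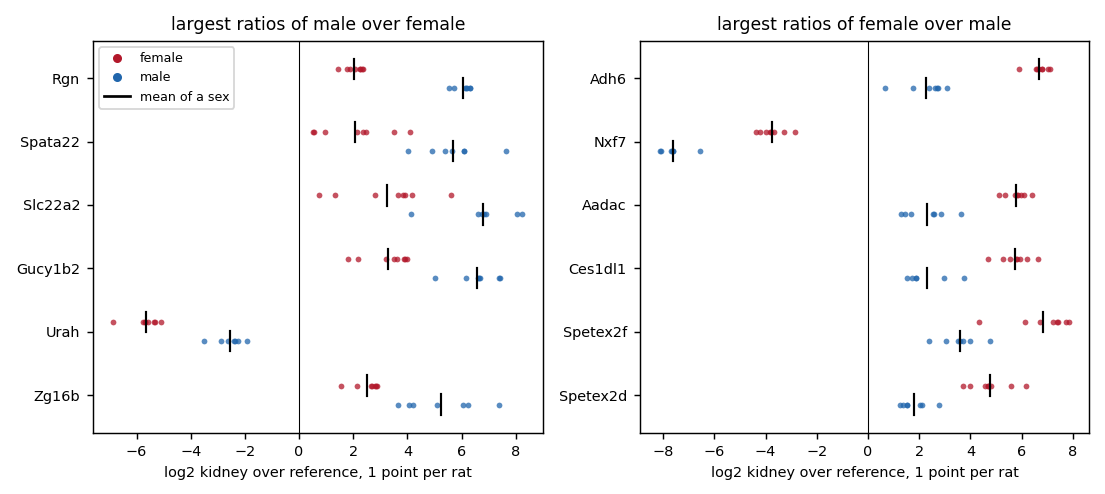
Log2 kidney over reference ratios of the 6 enriched or poor genes with the largest male excess (left) and the 6 with the largest female excess (right), 1 point per rat (8 females, 7 males), the bar marking the mean of a sex. For Rgn the males start at 5.55 and the females end at 2.35, and for Adh6 the females start at 5.90 and the males end at 3.07.

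In 9 genes the sexes lay past 2-fold on opposite sides of the pool, and 4 of them have a symbol (named after their values were seen). Akr1b7, an aldose reductase-like enzyme, stood at 7.53 in females and -2.57 in males, though only 4 female arrays had an unmarked spot. Akr1c12l1, an aldo-keto reductase, stood at -2.06 in females and 4.63 in males, without overlap. Sox9, a progenitor factor, stood at -2.10 in females and 1.80 in males, with other probes at -1.48 to 0.34 as means of the sexes, and Srsf12 at 1.57 and -2.25. Of the genes listed for response to sex steroids, Akr1c1 was at least 769-fold enriched and Kap, the kidney androgen-regulated protein, stood at 7.56 ± 0.14, between 6.65 and 8.28 in females and between 7.19 and 8.72 in males.

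The spread within a sex differed widely between enriched genes. Among those above background in both dyes on all 15 arrays, the standard deviation within a sex was smallest for Mpdu1 (mean 1.63), Mavs (1.69), Pkp4 (2.40), Hsd17b8 (2.09), Mfn2 (1.29) and Oplah (2.86), which act in glycosylation, innate signalling, cell junctions, mitochondria and glutathione turnover. Mpdu1 lay between 1.57 and 1.69 in females and between 1.55 and 1.70 in males. It was largest for Cox8b, Slc7a7, Akr1c15, Apold1, Ugt2b35 and Fabp4. Cox8b and Fabp4 are among the fat-cell genes above. Ugt2b35, a glucuronosyltransferase, lay between 0.76 and 3.97 in females and between 2.61 and 3.8 in males. The calls of Slc7a7 (2.37 ± 0.26), Akr1c15 (1.97 ± 0.26) and Apold1 (1.97 ± 0.22) were each lost without single arrays, at adjusted p up to 0.22, 0.15 and 0.11.

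Slides were compared within each sex. Between the 2 slides of a sex, 13 genes differed in females and 24 in males, 11 of them in both (limma, adjusted p under 0.05). Among these, Aadat, a kynurenine aminotransferase named after its values were seen, was at least 107-fold enriched and fell into levels by slide: 7.81 and 5.27 on the female slides and 9.57 and 7.06 on the male slides, so that rats 1 to 4 of each sex were high.

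Against dTGR, whose reference is the same pool, 10% of all tested genes differed in females and 30.8% in males (limma over all 31 arrays, adjusted p under 0.05). No slide held rats of both strains, so a strain difference cannot be told apart from a slide difference here. Of the 167 named enriched or poor genes, 10 (5.99%) differed in females and 40 (23.95%) in males, no larger shares than over all genes. Of the 38 cell cycle genes 27 were higher in dTGR males than in SD males and 1 was lower, and of the 32 replication genes 21 were higher and none lower, where 16.3% of all tested genes were higher. In females none of 38 and 2 of 32 were higher, where 3.55% of all genes were. In males, Ttk stood at -4.22 against -6.59, Bub1b at -4.43 against -6.18 and Top2a at -3.43 against -5.03, and the differences of 2.37, 1.75 and 1.6 had adjusted p of 8.01e-05, 1.84e-05 and 0.000214. In females the same 3 genes differed by 0.46, 0.28 and 0.14, with adjusted p from 0.55 to 0.83; whether the strain difference itself differs between the sexes was not tested. The control transcripts read toward the kidney by a median of 0.99 in SD and 0.06 in dTGR, a gap in the zero that moves with strain and whose part in these differences was not tested.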

How the data were processed

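Kidney RNA (Cy3) and the pooled reference (Cy5) of 31 rats were hybridised to two-colour Agilent arrays of 45018 spots, 1639 of them controls. Per the file headers, the spots were read with Feature Extraction 9.5.3.1, which subtracted background and balanced the dyes of each array to give the processed intensity values. Per the file headers, the deposited log10 ratio is Cy5 over Cy3, and it was used only to check direction. The authors' deposited log2 values of the series matrix correlated with it at -0.953 to -0.919, so they are kidney over reference. Their column medians ran from -0.048 to 0.087, their scaling is unknown here, and they served as an alternative.

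From the processed intensities, log2 of Cy3 over Cy5 was formed for each spot. Control spots and spots marked as outliers were left out (403 to 3697 spots per SD array), and spots of a probe were averaged. Probes were kept when well above background in Cy3 or in Cy5 on at least 7 of the 15 arrays and unmarked on at least 3 arrays of each sex; the probe with the highest mean signal of both dyes stood for its gene. Names came from a RefSeq gene table (GRCr8, names only): 10735 probes matched by accession, 10517 by symbol, synonym or gene ID, and 19760 kept the file's name. With limma 3.58.1 in R 4.3.3, 1 mean per sex was fitted with a trend on signal. Ratios were tested against 2-fold with treat, and sex and strain differences with moderated tests; p was adjusted by Benjamini-Hochberg over all genes. The ± values are standard errors of the mean of the sexes. Where a dye was not well above background on any of the 15 arrays, the bound sets the bright signal against the higher of the array's lowest well-above-background signal and the probe's own. The number of arrays limits the precision.

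Named genes were the 10 most enriched and 10 most poor, up to 3 called members of each of 37 lists and 1 called the other way, the 6 largest sex differences each way, isoform pairs, Ctsl and Agt, the 6 most and 6 least variable, and those said in the text to be chosen afterwards, including the genes of the printed promoters. A few genes that this rule picks are not reported here. Members and lists were chosen with earlier results of these data known. The fit was tested on simulated data. Alternatives covered normalization, background, fold, filter, probe choice, weights, trend, slide and arrays left out; the zero of the control transcripts, the arrays and genes of the replicate block without the block, and the fit without SD female 2 and SD male 1 were added after seeing the data.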

Additional observations from a re-analysis of the deposited data

Results flagged for a closer look

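Single rats far from their group were found in 26 of the 356 groups of ratios examined for the named genes. Chance alone marks about 1 in 20 groups. Some named genes were picked for a large spread, and others, such as Ucp1, after their values were seen. The count therefore cannot be set fairly against that rate. SD male 5 gave 6 of them: high for Slco1a6 at 10.39, Atp6v1g3 at 7.45, Egf at 6.15 and Slc3a1 at 7.54, and low for Acsm3 at 4.12 and Rln1 at -7.56. SD male 2 gave 5: low for Slc5a2 at 6.46, Aqp7 at 6.01, Slc22a2 at 4.13 and Myog at -6.58, and high for Nxf7 at -6.55. Of these, Slc22a2 and Nxf7 differ between the sexes, and in both SD male 2 was the male nearest to the females.

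SD female 7 was low for Slc22a25 at 6.03 and Urah at -6.86 and high for Slc7a5 at -2.46 and Cox6a2 at -0.12. SD male 1 was low for Cox8b at 2.18, Ucp1 at 2.67 and Nefm at 5.21, and SD female 2 was low for Ucp1 at 1.5 and Hbb at 4.19. SD female 4 was high for Mmp3 at -4.49 and Ahsg at -3.87, SD female 6 for Slc34a1 at 7.45 and Glyat at 7.48, and SD male 8 for Cxcl1 at -3.52, while SD female 1 was low for Adh6 at 5.90.

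Male minus female differences passed the test (limma, adjusted p under 0.05) in 60 named genes. The largest, on the log2 scale, were -10.10 for Akr1b7, 6.69 for Akr1c12l1, -4.41 for Adh6, 4.02 for Rgn, 3.90 for Sox9, -3.88 for Nxf7, -3.83 for Srsf12, 3.62 for Spata22, 3.53 for Slc22a2 and -3.50 for Aadac. They were followed by Ces1dl1 at -3.45, Gucy1b2 at 3.30, Spetex2f at -3.27, Urah at 3.1, Spetex2d at -2.98, Zg16b at 2.74, Ctsl at -2.73 and Agt at 2.70. Those between 1 and 2 in size were Aadat at 1.96, Prlr at 1.51, Slc15a2 at -1.42, Gzmb at -1.39, Nr1h4 at -1.17, Cps1 at -1.06 and Nefm at 1.00.

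Smaller differences toward males were found for Mep1a at 0.82, Cldn5 at 0.78, Arg2 at 0.73, Hbb-b1 at 0.69, Slc3a1 at 0.66, Slc27a2 and Glyat at 0.64 each, Umod at 0.63, Agxt2 at 0.61, Mep1b at 0.59, Egf at 0.54, and Fbp1, Slc34a1, Miox and Nat8 at 0.50 each. C1qa and Pomc stood at 0.47, Cdh16 at 0.44, Cldn10 at 0.42, Des at 0.41, Crb3 at 0.38, Fxyd2 at 0.37, Pfkl at 0.34, Scnn1b at 0.32, Fxyd6 at 0.29, Oplah at 0.24 and Mavs at 0.21. Toward females they were -0.95 for Lox, -0.75 for Fcgr2b, -0.57 for Atp1b1, -0.50 for Rpl30, -0.49 for Kynu, -0.41 for Psmd14, -0.31 for Idh2 and -0.30 for Dlst.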

How the results depend on the processing

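With the 2-fold test, the counts of enriched and poor genes were 3110 and 3315. They fell to 1997 and 1710 with normexp and loess, and to 1962 and 1718 with loess and no background correction. With normexp and median centring they were 917 and 5683, and with the zero of the control transcripts 1573 and 6646, where the sex count was 1041 in place of 5350. Enriched genes were 48.4% of the enriched and poor genes together, but 13.9% with median centring and 19.1% with the zero of the control transcripts. A test against 0 gave 7079 and 8660, a fold of 4 gave 1482 and 1206, and a filter on both dyes left 2037 poor genes. Without single arrays, 3055 to 3117 genes were enriched, 3235 to 3319 poor and 4593 to 5447 different between the sexes. The other alternatives stayed within 1.5 times.

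Under normexp and median centring, signs turned for the median of oxidative phosphorylation (-0.25) and the ratios of Ctsl (-0.26), Hk1 (-0.77), Cox6a1 (-0.72) and Mpdu1 (-0.048); Hk1 was -0.33 with the zero of the control transcripts. Male minus female turned there for Mep1a (-0.46), Mep1b (-0.18), Cldn10 (-0.10), Scnn1b (-0.14), Glyat (-0.14), Crb3 (-0.014), Mavs (-0.030) and Oplah (-0.032). With normexp and loess it turned for Mep1a (-0.32), Mep1b (-0.061) and Cps1 (0.13), with loess and no background correction for the same genes (-0.34, -0.058 and 0.084), with the mean of all probes for Nat8 (-2.41) and with the zero of the control transcripts for Fxyd6 (-0.012). The cause was not tested.

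Of 167 named enriched or poor genes, 162 kept their call without any single array; calls failed for Slc7a7 without any of SD females 2, 3, 4 and 8 or males 1, 3, 4, 7 and 8, Akr1c15 without females 1, 3 to 7 or male 4, Apold1 without male 5, 7 or 8, Atp6v1b2 without male 3 or 7, and Spata22 without female 5 or 8. Of 60 named sex calls, 47 were kept; Glyat, Crb3, Idh2, Mep1b, Des, Cdh16, Aadat, Cldn10, Kynu, Miox, Scnn1b, Slc34a1 and Fxyd6 lost theirs without 1 array or another, at adjusted p up to 0.12. Replicate numbers are shared by females and males but did not pair them: correlations of same-numbered rats ran from -0.011 to 0.182, and 2 of 7 females correlated best with their own number. A replicate block over 15690 genes on 14 arrays gave 2329 enriched, 2611 poor and 4058 sex calls, against 2310, 2602 and 4171 on the same arrays and genes without it. Ratios near or below background are limited by signal, not by the number of rats.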

Other observations

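Some gene lists held more sex differences one way than the other. These counts carry no test of the list, and the lists share genes. Shares of all tested genes are given for most of the scalings used (limma, adjusted p under 0.05). Of 23 V-ATPase subunits 9 were higher in females and none in males, where 14.4% and 10.1% of all genes were. With normexp and median centring 11 subunits were higher in females, where 22.6% of all genes were, and with the zero of the control transcripts 1 was, where 3.34% of all genes were. Of 17 intercalated cell genes 4, and of 20 citric acid cycle genes 5, were higher in females and none in males. With normexp and median centring these counts were 6 and 7, and with the zero of the control transcripts 1 and 1, near the share of all genes.

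Of 31 cytochrome P450 and conjugation genes 13 were higher in males and 3 in females. Over the 5 other scalings 9 to 13 were higher in males and 2 to 7 in females. Of all genes, 1.43% to 11.6% were higher in males and 3.34% to 22.6% in females over those scalings. With normexp and median centring, where 3.12% of all genes were higher in males, 10 of these genes were. Of 19 proximal tubule transporters 9 were higher in males and 2 in females, and with that scaling 6 and 5. Of 21 brush border genes 8 were higher in males and 2 in females, and of 22 endothelium and vessel genes 4 and none. That scaling moved the counts over all genes toward females, with 22.6% higher in females. It gave 1 and 7 brush border genes and no and 6 endothelium and vessel genes. The male excess of these lists was absent under all 5 other scalings. With normexp and loess, where 11.6% of all genes were higher in males and 14.1% in females, the counts were 5 and 5, and 3 and 6. With the deposited values they were 4 and 4 for both lists.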
